A study of Mus musculus with 16 samples.

Results

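The genes described here encode the subunits of respiratory chain complexes I to IV in BCR-ABL1p185+ mouse B-lymphoid cell lines. Members were all genes whose symbol named a structural subunit of complex I (Nduf), complex II (Sdh), complex III (Uqcr, Cyc1) or complex IV (Cox4 to Cox8), together with the complex I, III and IV genes of the mitochondrial genome, and symbols marked as pseudogenes were left out. The rule used names only and no measured value. It gave 83 of 50686 genes, of which 72 were nuclear and 11 were mitochondrially encoded. Complex I had 38 nuclear members, complex II 4, complex III 9 and complex IV 21, and the mitochondrial genome added 7 to complex I, 1 to complex III and 3 to complex IV. Ndufa4 and Ndufa4l2 were counted with complex IV despite their Nduf symbols.

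RNA was sequenced from lines that the labels call wild-type and Cdk8-ko (Cdk8Δ/Δ), which the study describes as Cdk8fl/fl and Cdk8Δ/Δ Vav-Cre. All of them were C57BL/6N bone marrow cells transformed with BCR-ABL1p185, the fusion kinase of B-lymphoid leukemia, and the loxP-flanked Cdk8 alleles were removed by a Cre recombinase that the Vav promoter drives in blood cells. Each genotype was given DMSO or 1 µM senexin B, an inhibitor of the kinases CDK8 and CDK19, for 48 h, and each of the 4 groups held 4 libraries. The study describes its Cdk8Δ/Δ lines as derived individually, but whether each line came from a separate animal was not given in the sources used here, so the p-values measure the spread between these samples. An age of donor mice was given for a colony assay and not for these lines, and whether a line was 1 clone was not given.

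The respiratory chain sits in the inner mitochondrial membrane. Complex I takes electrons from NADH and complex II takes them from succinate, ubiquinone carries them to complex III, and cytochrome c carries them to complex IV, which reduces oxygen to water. Complexes I, III and IV pump protons while electrons pass, and ATP synthase uses the gradient. The mitochondrial genome encodes core subunits of complexes I, III and IV, whereas every subunit of complex II and the accessory subunits are nuclear. B-lineage leukemia cells depend on both glycolysis and respiration, and CDK8 belongs to the kinase module of Mediator, which links transcription factors to RNA polymerase II.

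The libraries held 13145876 to 18349425 counts, with a median of 15473665. The B-lymphoid markers were present throughout, with Cd79a between 317 and 1161 CPM (counts scaled by library size), whereas the hemoglobin gene Hbb-bt ranged from 2.75 to 263 CPM and the myeloid gene Lyz2 from 0.163 to 24.6 CPM between libraries. Cdk8 itself was at 64.8 ± 3.03 CPM in Cdk8fl/fl DMSO, 64.3 ± 16.6 in Cdk8fl/fl senexin B, 44.3 ± 7.09 in Cdk8Δ/Δ DMSO and 47.4 ± 9.59 in Cdk8Δ/Δ senexin B (SD, n = 4 each). These counts are over the whole gene and do not separate the deleted part from the rest. Why Cdk8 counts remained in the Cdk8Δ/Δ libraries was not tested. The Cdk8fl/fl senexin B library of line 2 stood apart with 1.14% of its counts on the nuclear members, against 0.646% to 0.937% in the other 15, and leaving out Cdk8fl/fl line 1 raised the number of genes called in 1 fit from 45 to 538, so results that rest on these lines are also given without them. Fewer cells of a type and less RNA per cell cannot be told apart in bulk libraries.

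Before any level is read, the mitochondrial genes need their sequence beside them, because the nuclear genome holds copies of part of the mitochondrial genome and the authors kept only reads with 1 location that fell in 1 gene. The copies that matter here lie next to each other on chromosome 1 and are annotated as unprocessed pseudogenes. The stretches below are 60 bases of each gene and of its copy from the GENCODE transcripts of GRCm38. They are shown for the mitochondrial members that were nearly absent from the counts, and capitals mark a base that differs.
mt-Co2, chrM:7323-7382, plus strand: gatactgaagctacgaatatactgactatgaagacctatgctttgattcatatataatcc
Gm28661, chr1:24615196-24615255, minus strand: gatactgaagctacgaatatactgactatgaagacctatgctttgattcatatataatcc
mt-Co3, chrM:8968-9027, plus strand: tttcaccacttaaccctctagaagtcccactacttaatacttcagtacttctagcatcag
Gm28437, chr1:24613551-24613610, minus strand: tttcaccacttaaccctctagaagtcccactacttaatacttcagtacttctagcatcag
mt-Nd3, chrM:9459-9518, plus strand: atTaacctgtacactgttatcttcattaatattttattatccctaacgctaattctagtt
Gm28438, chr1:24613060-24613119, minus strand: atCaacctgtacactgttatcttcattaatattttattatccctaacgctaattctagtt

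Gm28661 matched mt-Co2 at all 681 aligned bases, and Gm28437 matched mt-Co3 at all 783. Gm28438 differed from mt-Nd3 at 1 of 345 bases, and Gm10222 matched mt-Nd4l at all 294. These 4 members were listed with almost no reads. The count per library reached at most 6 for mt-Co2 (median 1), at most 11 for mt-Co3 (median 4), at most 2 for mt-Nd3 (median 0) and 0 for mt-Nd4l, whereas mt-Co1 had 182472 to 323728. The copies had a few more, with 48 to 123 counts for Gm28661, 129 to 295 for Gm28437, 40 to 155 for Gm28438 and 6 to 18 for Gm10222.

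A read was 50 bases long, so the share of a gene's 50-base words that also occur in another annotated gene was counted. It was 100% for mt-Co2, 99.9% for mt-Co3, 98.8% for mt-Nd4l and 98.0% for mt-Nd3. The share was 62.2% for mt-Nd4, which still had 37349 to 71134 counts, and 51.1% for mt-Co1. It was 8.19% for mt-Nd2 and 7.61% for mt-Nd5, and 0% for mt-Nd1, mt-Cytb and mt-Nd6. The 4 members with almost no counts were thus those with the highest shares, and their listed values were not read as levels. Outside the members, mt-Atp6 of ATP synthase fitted the same order with 99.5% and a median of 2.5 counts, whereas mt-Atp8 had 0 or 1 count per library at a share of 0%. Only annotated genes were searched, so a copy in unannotated sequence would not show in this share. Whether mt-Atp8 has such a copy was not tested. mt-Nd6 is the gene of the opposite strand, and no strand setting was used in counting, so reads of either strand over it cannot be told apart.

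**Figure D1:**
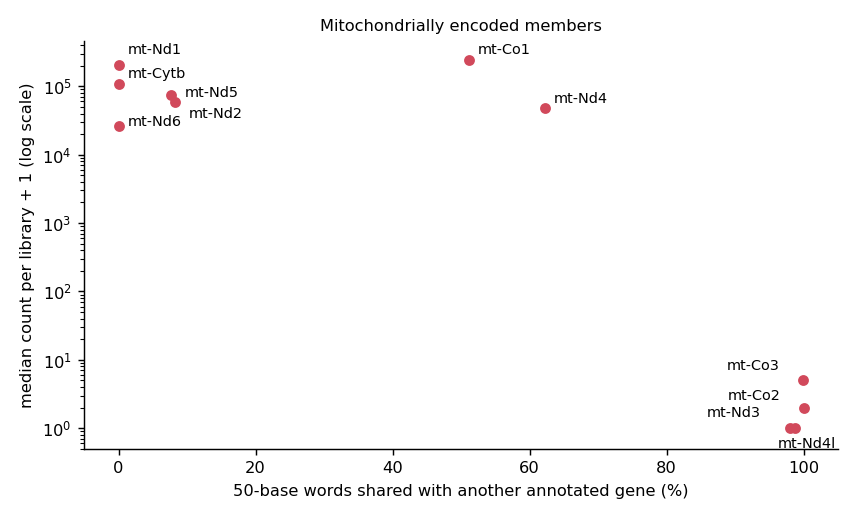
The horizontal axis gives the percent of 50-base words of each of the 11 mitochondrially encoded members that occur in another annotated gene, and the vertical axis the median count over 16 libraries plus 1 on a log scale. The 7 members at or below 62.2% have medians of 26663 counts or more, and the 4 members at 98.0% or more have medians of 0 to 4.

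Sharing was a smaller matter for the nuclear members. Of 72, 40 shared at least 1 word with another gene, the median share was 0.609%, and 8 shared over 20%. Those 8 held 3 members that are themselves annotated as processed pseudogenes (Cox6c2, Ndufb4c and Ndufs6b), and also Ndufb6 at 31.6%, Ndufa13 at 28.5% where it overlaps Tssk6, Uqcrb at 25.5%, Cox7c at 22.1% and Ndufs5 at 21.7%. The counts of these genes are uncertain to that extent. Ndufa11b, also annotated as a processed pseudogene, shared 10.4%.

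Of the 83 members, 71 passed the filter on low counts over all 16 libraries, 64 nuclear and 7 mitochondrial. The 12 that did not pass were the 4 mitochondrial genes above and the nuclear Cox4i2, Cox6c2, Cox7b2, Cox8b, Cox8c, Ndufa4l2, Ndufb4c and Ndufs6b. Most of these nuclear genes are tissue-restricted isoforms or copies.

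Mitochondrially encoded RNA held most of the counts of the chain. The 11 mitochondrial members took 3.77% to 8.11% of a library's counts and the 72 nuclear members 0.646% to 1.14%, so that 80.1% to 91.4% of all member counts were mitochondrial. Per kilobase of gene model, mt-Nd1, a proton-pumping core subunit of complex I, was highest at 14666 ± 3645 CPM per kb (SD, n = 16). mt-Co1, the catalytic subunit of complex IV, followed at 10707 ± 2599 and mt-Cytb, the cytochrome b of complex III, at 6603 ± 2118. mt-Nd2 stood at 4047, mt-Nd6 at 3581, mt-Nd5 at 2898 and mt-Nd4 at 2380 CPM per kb, and each neighbouring pair in this order had overlapping ranges over the libraries. The length used takes in words shared with other genes, 51.1% for mt-Co1 and 62.2% for mt-Nd4, against 0% for mt-Nd1, mt-Cytb and mt-Nd6. Levels of mt-Co1 and mt-Nd4 may thus be understated, and the order was not corrected for this.

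Among nuclear members the complex IV subunits Cox8a (611 ± 173 CPM per kb), Cox6a1 (560 ± 176) and Cox6b1 (367 ± 143) were highest, followed by Ndufa6 of complex I (328 ± 59.7) and Uqcr10 of complex III (295 ± 84.6). The median level of the members that passed the filter was 43.5 CPM per kb for the 36 nuclear subunits of complex I, 54.9 for the 4 of complex II, 101 for the 9 of complex III and 94.2 for the 15 of complex IV, against 5.65 for the 14164 genes that passed. The 4 subunits of complex II spanned the narrowest range. Sdhd, a membrane anchor, was at 125 CPM per kb, the iron-sulfur subunit Sdhb at 56.0, the anchor Sdhc at 53.8 and the flavoprotein Sdha at 36.4. The lowest of the members that passed were Cox6b2 at 0.873, Ndufa11b at 2.07, Ndufb2 at 2.40 and Cox7c at 4.38 CPM per kb. Ndufa11b, counted among the 36 of complex I, is annotated as a processed pseudogene.

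Nuclear core subunits of complex I, most of which carry its flavin or iron-sulfur clusters, were unequal in level. Ndufs8 was at 191 CPM per kb, Ndufv2 at 104, Ndufs7 at 92.3, Ndufv1 at 22.0, Ndufs3 at 17.4 and Ndufs1, the largest of them, at 7.54. Of the core of complex III, cytochrome c1 (Cyc1) was at 146, the Rieske protein Uqcrfs1 at 101 and the core protein Uqcrc1 at 44.5 CPM per kb. Gene models are unions of exons, so a gene with a long untranslated or retained exon has a low level on this scale.

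**Figure D2:**
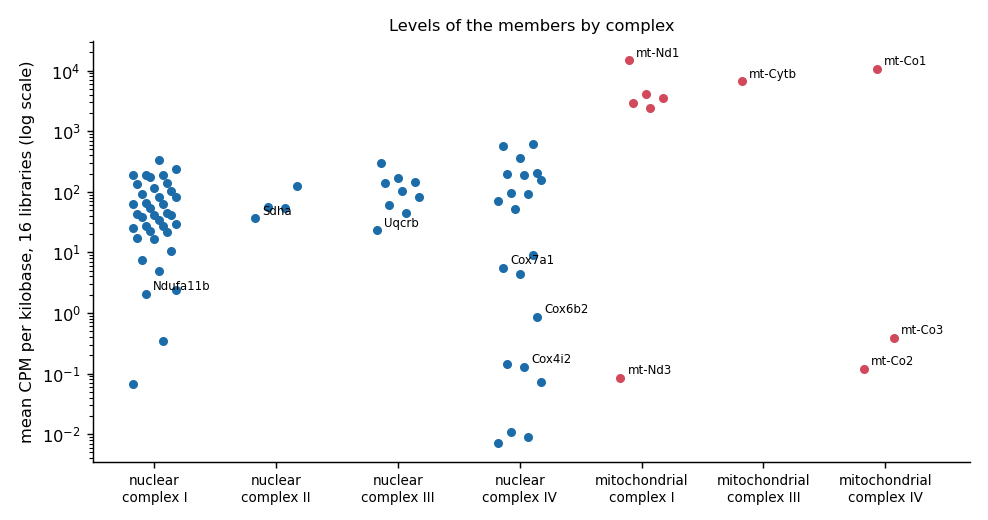
Each point is 1 member, placed by its part and complex on the horizontal axis and by its mean CPM per kilobase over 16 libraries on a log scale. The 7 measured mitochondrial members lie between 2380 and 14666, above every nuclear member. mt-Nd4l, listed at 0 in every library, has no point.

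Members differed in how far they varied between libraries. Among the steadiest were Uqcrc2, a core protein of complex III, whose highest library was 1.29 times its lowest, and Ndufa10 at 1.35 times. Of the members that passed the filter and had counts in every library, the most variable was Cox6a2, the muscle isoform of a complex IV subunit, at 756 times, ahead of the muscle isoform Cox7a1 at 19.8 times. Cox6b2 was at 0 to 4.09 CPM and has no such ratio. Both are counterparts of genes expressed in most tissues. Cox6a2 made up 0.0688% to 45.4% of the summed CPM per kilobase of Cox6a1 and Cox6a2, with a median of 7.88%. On the same scale Cox7a1 made up 0.661% to 7.46% of Cox7a1 and Cox7a2, with a median of 2.53%.

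The Cox6a2 values show how uneven this isoform was between lines. In Cdk8fl/fl lines 1 to 4 it was at 135, 49.5, 65.2 and 17.2 CPM with DMSO and at 222, 20.4, 6.68 and 6.92 with senexin B. In Cdk8Δ/Δ lines 1 to 4 it was at 39.4, 77.6, 26.3 and 0.294 CPM with DMSO and at 68.4, 31.2, 4.12 and 3.27 with senexin B. It was higher with senexin B in Cdk8fl/fl line 1 and in Cdk8Δ/Δ lines 1 and 4 and lower in the other 5 lines, and the groups overlapped. Cox6a1 was at 273 to 804 CPM in all 16 libraries. The other restricted isoforms were minor throughout by their share of the summed CPM per kilobase. The medians were 0.135% for Cox6b2 beside Cox6b1, 0.0388% for Cox4i2 beside Cox4i1 and 0.0736% for Ndufa4l2 beside Ndufa4, and 0% for Cox7b2, Cox8b and Cox8c. Cox7a2l, set beside Cox7a2 for its level and not read as a restricted isoform, made up 12.6% to 32.9% of Cox7a2 and Cox7a2l on this scale.

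Nuclear respiratory genes are known as targets of NRF1, of ETS family factors such as GABP, and of YY1. RefSeq promoters (GRCm38.p6, from 250 bases before to 50 after the start) matched 53 of the 72 nuclear members, and letters were searched on both strands. The NRF1 motif was in 11 of 53 (20.8%) against 5.19% of all 27025 genes with a promoter, CCGGAAG (ETS) in 11 (20.8%) against 9.93% and AAGATGGC (YY1) in 7 (13.2%) against 3.19%. At least 1 of the 3 was in 26 (49.1%) against 16.4%. The YY1 letters of the 7 promoters began 23 to 39 bases after the start. Promoters are printed for Ndufs6, the 1 member that was higher with senexin B in all 8 lines, and for Ndufc1, which had the smallest p between the genotypes, with the found letters in capitals.
Ndufs6 promoter, chr13:73328433-73328732, minus strand: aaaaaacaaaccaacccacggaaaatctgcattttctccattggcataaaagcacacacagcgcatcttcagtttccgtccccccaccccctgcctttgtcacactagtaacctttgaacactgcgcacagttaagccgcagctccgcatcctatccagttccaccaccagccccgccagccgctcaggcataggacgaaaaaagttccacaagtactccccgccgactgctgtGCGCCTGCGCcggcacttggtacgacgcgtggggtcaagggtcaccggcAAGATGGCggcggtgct
Ndufc1 promoter, chr3:51408906-51409205, minus strand: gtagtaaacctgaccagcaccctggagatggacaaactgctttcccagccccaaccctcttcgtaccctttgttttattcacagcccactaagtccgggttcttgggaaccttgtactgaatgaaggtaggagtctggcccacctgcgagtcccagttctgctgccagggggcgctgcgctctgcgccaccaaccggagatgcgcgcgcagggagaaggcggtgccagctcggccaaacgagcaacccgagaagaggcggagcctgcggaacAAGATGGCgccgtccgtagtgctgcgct

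Ndufs6 held the NRF1 letters 16 bases before the start and the YY1 letters 34 bases after it, and Ndufc1 held the YY1 letters 23 bases after it. A match is a description of the letters and not a binding site. Binding was not measured in these libraries.

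Loss of Cdk8 was first compared in DMSO, the question being whether deletion of the kinase gene moved the transcripts of the chain. No member was called. A call needed an adjusted p under 0.05 and a change over 2-fold in edgeR's quasi-likelihood test, which 1 of 13174 genes met (0.00759%). Of 70 members tested 0 were called, and 2 (2.86%) had an unadjusted p under 0.05 against 5.31% of all genes. DESeq2 also called 0 members (0.152% of all genes) and gave 3 (4.29%) an unadjusted p under 0.05 against 6.9%. The median log2 fold change, Cdk8Δ/Δ over Cdk8fl/fl, was 0.02 over 63 nuclear members, of which 33 were above 0 (50.3% of all genes were), and 0.17 over the 7 mitochondrial members, all above 0, against a median of 0.00 over all genes.

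Ndufc1 encodes a small accessory subunit of the membrane arm of complex I and lies at chr3:51404677-51408988. It was at 34.6, 38.6, 34.9 and 36.2 CPM in Cdk8fl/fl DMSO lines 1 to 4 and at 61.6, 47.4, 39.2 and 58.8 CPM in Cdk8Δ/Δ DMSO lines 1 to 4. Every Cdk8Δ/Δ library was above every Cdk8fl/fl library, with line 3 the closest. The log2 fold change was 0.52 (SE 0.16, unadjusted p = 0.00997, edgeR adjusted p = 0.898).

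Uqcrb, the ubiquinone-binding protein of complex III at chr13:66900617-66905378, was the other. It was at 22.8, 17.0, 19.3 and 15.5 CPM in Cdk8fl/fl and at 30.4, 29.6, 18.8 and 24.5 CPM in Cdk8Δ/Δ DMSO lines. The groups overlapped through line 3. The log2 fold change was 0.47 (SE 0.20, unadjusted p = 0.0453, edgeR adjusted p = 0.898).

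Groups did not overlap for 3 of the 70 members in DMSO. Ndufc1 and mt-Nd1 lay higher in Cdk8Δ/Δ (2.86%, against 1.48% of all genes) and Uqcrfs1 lower (1.43%, against 1.66%). mt-Nd1 was at 12325, 8778, 10145 and 13099 CPM in Cdk8fl/fl and at 13640, 13429, 15185 and 14557 CPM in Cdk8Δ/Δ DMSO lines, and its log2 fold change was 0.36 (SE 0.16, unadjusted p = 0.0534, edgeR adjusted p = 0.898). The other 6 mitochondrial members had log2 fold changes of 0.08 to 0.31. Uqcrfs1, which carries the Rieske iron-sulfur cluster, was at 166, 159, 165 and 170 CPM in Cdk8fl/fl and at 154, 100, 90.7 and 159 CPM in Cdk8Δ/Δ DMSO lines. Lines 2 and 3 were far below the rest, and its log2 fold change was -0.39 (SE 0.19, unadjusted p = 0.0753, edgeR adjusted p = 0.898).

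Complex by complex the genotypes in DMSO lay close together. The nuclear median log2 fold change was -0.01 for complex I (36 members), 0.03 for complex II (4), 0.05 for complex III (9) and 0.04 for complex IV (14). Sdha, the catalytic subunit of complex II, was at 142 ± 20.4 CPM in Cdk8fl/fl and 144 ± 7.59 in Cdk8Δ/Δ DMSO libraries (SD, n = 4), and Cyc1 at 175 ± 40.5 and 166 ± 17.2 CPM. The study's own gene set enrichment analysis of its RNA sequencing lists an oxidative phosphorylation set with a negative score in Cdk8Δ/Δ lines. That score comes from another gene list and another method and was not repeated here, so it and these medians are not like measures.

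**Figure D3:**
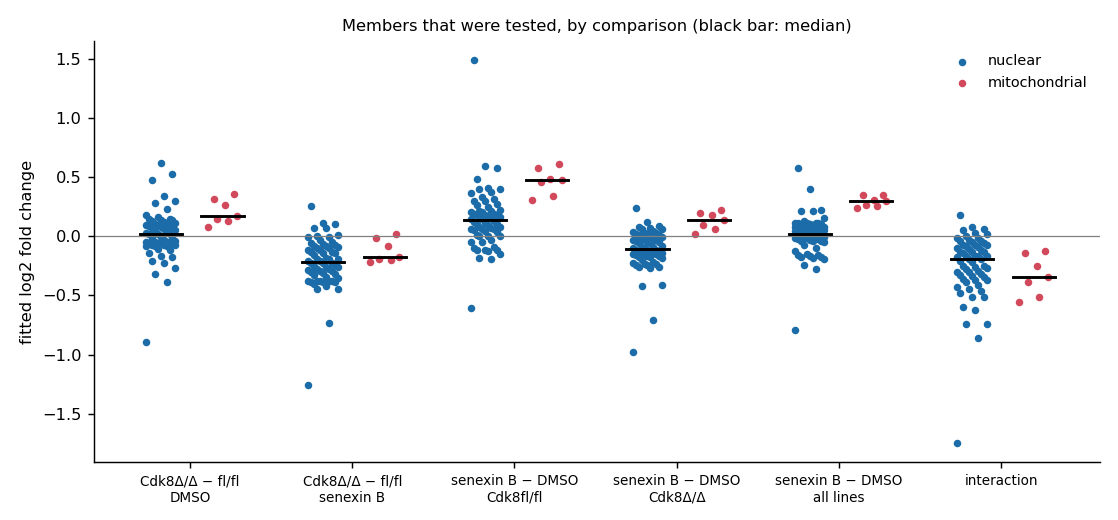
Each point is the fitted log2 fold change of 1 tested member in 1 of 6 comparisons, nuclear members beside mitochondrial members, with a black bar at the median. Comparisons share libraries. The nuclear median is -0.22 between the genotypes with senexin B and 0.14 for senexin B in Cdk8fl/fl lines, and no member passed the threshold in any of the 6.

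Between the genotypes with senexin B most members had values below 0, and this rested on 1 library. The median log2 fold change was -0.22 over 64 nuclear members, 58 of them below 0 (50.6% of all genes were), and -0.18 over 7 mitochondrial members, 6 of them below 0. edgeR called 0 of 71 members (0.0% of all 13010 genes) and DESeq2 called 0 (0.0231%). An unadjusted p under 0.05 was given to 0 members by both, against 1.55% of all genes in edgeR and 2.18% in DESeq2. The groups overlapped for each of the 71, whereas 0.546% of all genes lay wholly higher and 0.453% wholly lower. Without the Cdk8fl/fl senexin B library of line 2 the nuclear median was 0.01, with 34 of 64 above 0 (51.5% of all genes), and the mitochondrial median 0.18. By complex the medians with that library were -0.19 for I, -0.02 for II, -0.29 for III and -0.35 for IV.

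Senexin B was next compared with DMSO within the Cdk8fl/fl lines, to see what the inhibitor did where CDK8 was present. The mitochondrial members had a higher median than the nuclear members, and neither held a member that passed the threshold. Mitochondrial log2 fold changes ran from 0.31 for mt-Nd5 to 0.61 for mt-Nd2, with a median of 0.48, standard errors of 0.24 to 0.34 and unadjusted p of 0.0565 to 0.238 (edgeR adjusted p = 0.9998). The 64 nuclear members had a median of 0.14, with 51 above 0 (52.9% of all genes). Of 71 members 0 were called in edgeR (0.0% of all 12989 genes) and 0 had an unadjusted p under 0.05 against 3.8% of all genes, while DESeq2 called 0 (0.131%) and gave 2 (2.82%), mt-Nd1 and mt-Nd2, an unadjusted p under 0.05 against 4.62%.

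Line by line the share of counts on the mitochondrial members was 4.93%, 3.93%, 3.77% and 5.33% with DMSO and 6.40%, 8.11%, 4.01% and 4.96% with senexin B. Line 2 was 2.06-fold higher with the inhibitor and line 1 1.30-fold, while lines 3 and 4 were at 1.06-fold and 0.930-fold. The groups overlapped, with means of 4.49% ± 0.760 and 5.87% ± 1.79 (SD, n = 4). The share of the mitochondrial ribosomal RNAs had another order, at 1.35-fold, 0.757-fold, 1.07-fold and 1.51-fold in lines 1 to 4.

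mt-Nd1 was at 19420, 21570, 10934 and 13938 CPM with senexin B, against 12325, 8778, 10145 and 13099 with DMSO. mt-Co1 was at 21951, 26460, 13047 and 15983 CPM with senexin B, against 17920, 12209, 10839 and 15768 with DMSO. Both were higher in each line, with the smallest ratio in line 4 and the largest in line 2. mt-Nd2 was also higher in each of the 4 lines.

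**Figure D4:**
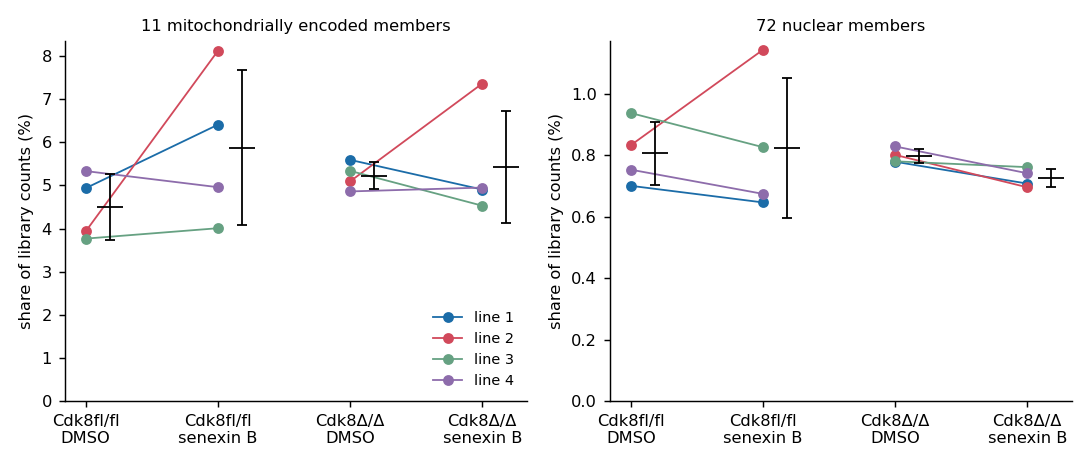
The vertical axes give the percent of a library's counts on the 11 mitochondrially encoded members (left) and on the 72 nuclear members (right), with 1 point per library, lines joining the DMSO and senexin B libraries of 1 cell line, and bars for the mean ± SD of each group (n = 4). Line 2 with senexin B is the highest library of its group in 3 of the 4 senexin B columns, at 8.11% and 7.35% mitochondrial and, in Cdk8fl/fl, 1.14% nuclear.

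With the line as a block, which compares each senexin B library with the DMSO library of its own line, 45 of 12989 genes were called (0.346%) and 0 of 71 members. At an unadjusted p under 0.05 there were 3 members (4.23%) against 10.3% of all genes, and all 3 had positive log2 fold changes. Ndufb2 of complex I was at 0.52 (SE 0.20, edgeR adjusted p = 0.421), Ndufs6 at 0.41 (SE 0.17, edgeR adjusted p = 0.449) and Cox6b2, the testis isoform of a complex IV subunit, at 1.25 (SE 0.49, edgeR adjusted p = 0.448). Ndufs6, a zinc-binding accessory subunit of complex I at chr13:73319874-73328542, was at 21.5, 24.9, 30.1 and 16.9 CPM with DMSO and 25.3, 38.2, 31.4 and 27.1 CPM with senexin B. Each line was higher, by the least in line 3. Cox6b2 was at 0 CPM in both libraries of line 1 and highest at 4.09 CPM in line 2 with senexin B, and without that library its log2 fold change in the fit without the block was -0.40, against 1.49 with it.

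Line 1 of the Cdk8fl/fl genotype had the opposite order to the other 3 lines in Cox6a2, and a blocked fit without both of its libraries was added after seeing the data. It called 538 genes (4.15%), in place of 45, and 1 of 71 members, Cox6a2 (chr7:128205435-128206387). Because the line left out was the one that went the other way, the call describes lines 2 to 4 and does not test the effect of senexin B. The log2 fold change of Cox6a2 was -1.96 (SE 0.37) over lines 2 to 4 and -1.25 (SE 0.59, edgeR adjusted p = 0.538) over all 4 lines. Uqcrh, the hinge protein of complex III, had a log2 fold change of 0.72 (SE 0.16) without line 1, under the 2-fold limit, and was the other of 2 members (2.82%) with an adjusted p under 0.05 there, against 7.82% of all genes. Uqcrh was at 140, 150 and 120 CPM with DMSO and 285, 213 and 187 CPM with senexin B in lines 2 to 4, and at 211 and 110 CPM in line 1. Line 1 had the opposite order for Uqcrh too, so the same limit holds. Without the block and without line 1 edgeR called 0 genes (0.0%).

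Of the 71 members, 9 (12.7%) were higher with senexin B in every Cdk8fl/fl line, against 8.38% of all genes, and 0 were lower in every line, against 9.46%. The 9 were Ndufb2, Ndufb5, Ndufb6, Ndufc2, Ndufs6, Sdhb, mt-Co1, mt-Nd1 and mt-Nd2, so complexes I, II and IV were among them.

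The nuclear values above 0 came mainly from line 2. The median log2 difference of senexin B from DMSO over 64 nuclear members was -0.01 in line 1, 0.41 in line 2, -0.08 in line 3 and 0.02 in line 4, and in line 2 58 of 64 were above 0. Cox6a1 shows it, at 303, 429, 433 and 406 CPM with DMSO and 277, 804, 378 and 355 CPM with senexin B. Without both libraries of line 2 the median over the nuclear members was -0.01, with 30 of 63 above 0 (51.7% of all genes), and the mitochondrial median 0.21. In line 2 the cytosolic ribosomal protein genes had a median of 0.47, the mitochondrial ribosomal protein genes 0.40 and all other genes under 1500 bases 0.25, against -0.04 for other genes of 1500 bases or more. The nuclear members under 1500 bases stood at 0.48 there and the longer ones at 0.33. The part of transcript length in the values of this library was not tested.

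**Figure D5:**
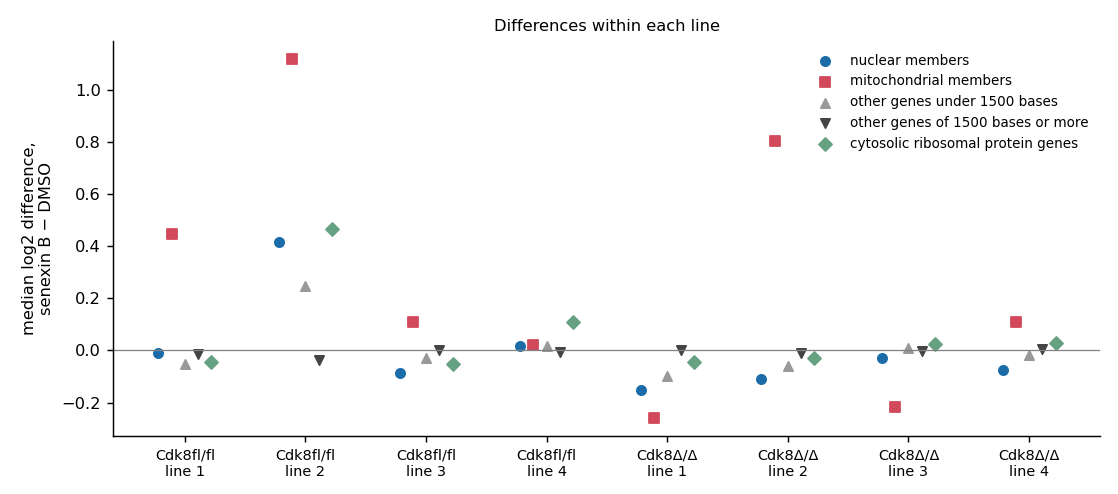
For each of the 8 lines the vertical axis gives the median log2 difference of senexin B from DMSO over nuclear members, mitochondrial members, other genes under or from 1500 bases and cytosolic ribosomal protein genes. Cdk8fl/fl line 2 stands out at 0.41 for nuclear and 1.12 for mitochondrial members, and the other 7 lines lie between -0.15 and 0.02 for nuclear members.

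In the Cdk8Δ/Δ lines senexin B was compared with DMSO to see what it did without CDK8. The nuclear members lay slightly below 0 and the mitochondrial members slightly above. The median log2 fold change was -0.11 over 64 nuclear members, with 49 below 0 (48.5% of all genes), and 0.14 over the 7 mitochondrial members, against 0.01 over all genes. edgeR called 0 of 71 members (0.0% of all 13285 genes) and 2 (2.82%) had an unadjusted p under 0.05 against 1.83% of all genes. DESeq2 called 0 members (0.0%) and gave 4 (5.63%) an unadjusted p under 0.05 against 2.48%. With the line as a block, 7 genes were called (0.0527%), none a member, and 5 members (7.04%) had an unadjusted p under 0.05 against 10.3% of all genes.

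Uqcrb was at 14.2, 19.7, 15.0 and 14.4 CPM with senexin B in Cdk8Δ/Δ lines 1 to 4, against 30.4, 29.6, 18.8 and 24.5 CPM with DMSO. It was lower in each line, and the groups overlapped only through line 2 with senexin B and line 3 with DMSO. The log2 fold change was -0.71 (SE 0.20, unadjusted p = 0.00746, edgeR adjusted p = 1.00), and -0.69 (SE 0.15, adjusted p = 0.204) with the block. Cox7a2, the general isoform of a small complex IV subunit at chr9:79755361-79759878, was at 187, 164, 191 and 224 CPM with DMSO and 121, 126, 158 and 169 CPM with senexin B. It too was lower in each line, with a log2 fold change of -0.41 (SE 0.15, unadjusted p = 0.0243, edgeR adjusted p = 1.00) and of -0.42 (SE 0.09, adjusted p = 0.222) with the block. The other 3 members with a blocked unadjusted p under 0.05 were Cox7a1 (-0.86, SE 0.26), Ndufb11 (-0.27, SE 0.09) and Ndufs3 (-0.23, SE 0.09), also below 0.

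Of 71 members, 15 (21.1%) were lower with senexin B in every Cdk8Δ/Δ line, against 10.3% of all genes. They spanned the 4 complexes and included Ndufs3, Ndufb7, Ndufb11, Ndufc1 and Ndufc2 of complex I, Sdha of complex II, Uqcrb and Uqcrfs1 of complex III and Cox7a1 and Cox7a2 of complex IV. Ndufs6 and Uqcrc1 were higher in every line (2.82%, against 8.89%). Only for Ndufc2 did the groups not overlap (lower, 1.41% against 0.768% of all genes, while 0.888% lay wholly higher). Differences were small for Sdha, which was at 149, 145, 133 and 148 CPM with DMSO and 140, 143, 130 and 141 CPM with senexin B.

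The mitochondrial share in the Cdk8Δ/Δ lines was 5.59%, 5.09%, 5.33% and 4.86% with DMSO and 4.90%, 7.35%, 4.53% and 4.95% with senexin B. Lines 1 and 3 were lower, line 2 was 1.44-fold higher and line 4 was at 1.02-fold, so the direction differed between lines. Without the senexin B library of line 2 the median log2 fold change of the mitochondrial members was -0.07. The nuclear share was lower with senexin B in each line, by 0.909-fold, 0.869-fold, 0.976-fold and 0.895-fold, with means of 0.797% ± 0.0233 and 0.726% ± 0.0301 (SD, n = 4). In the Cdk8fl/fl lines it was lower in lines 1, 3 and 4, at 0.923-fold, 0.882-fold and 0.896-fold, and higher in line 2 at 1.37-fold.

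Over all 8 lines edgeR called 0 of 71 members (0.0% of all 14164 genes), and 0 had an unadjusted p under 0.05 against 4.86%. DESeq2 called 0 (0.12%) and gave 2 (2.82%), Cox7a1 and Ndufs3, an unadjusted p under 0.05 against 5.77%. With the block 134 genes were called (0.946%) and 0 members, and 7 members (9.86%) had an unadjusted p under 0.05 against 16.4% of all genes. Below 0 were Cox7a1 (-0.76, SE 0.26, edgeR adjusted p = 0.154), Ndufb11 (-0.22, adjusted p = 0.240), Ndufb7 (-0.22), Ndufs3 (-0.19) and Uqcrfs1 (-0.16), and above 0 were Ndufb2 (0.33) and Ndufs6 (0.23).

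Without Cdk8fl/fl line 2, which was left out after seeing the data, the blocked fit gave 2 of 71 members (2.82%) an adjusted p under 0.05 against 1.75% of all genes. Both had values below 0, neither passed the 2-fold limit, and line 2 was the 1 line in which they were higher with senexin B, so this describes the other 7 lines and is no test. Cox7a1 (chr7:30184144-30186078) had a log2 fold change of -0.98 (SE 0.20) and Ndufb11, an accessory subunit of the complex I membrane arm at chrX:20615326-20617619, one of -0.29 (SE 0.06). Cox7a1 was at 1.50, 1.57, 3.43 and 5.38 CPM with DMSO and 0.431, 3.02, 1.71 and 2.61 CPM with senexin B in the Cdk8fl/fl lines. In the Cdk8Δ/Δ lines it was at 8.54, 3.19, 2.28 and 4.27 CPM with DMSO and 2.81, 2.47, 1.82 and 2.16 CPM with senexin B. It was lower with senexin B in 7 of 8 lines and higher in line 2 of Cdk8fl/fl, and the same held for Ndufb11. Ndufb11 was at 142, 149, 143 and 123 CPM with DMSO and 109, 187, 113 and 103 CPM with senexin B in the Cdk8fl/fl lines, and at 139, 111, 150 and 133 against 106, 89.1, 123 and 126 CPM in the Cdk8Δ/Δ lines. At an unadjusted p under 0.05 this fit had 11 members (15.5%), all below 0, against 16.9% of all genes.

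Ndufs6 was the 1 member higher with senexin B in all 8 lines (1.41%, against 1.96% of all genes), and 0 were lower in all 8, against 2.59%. In the Cdk8Δ/Δ lines it was at 22.7, 28.1, 24.0 and 30.9 CPM with DMSO and 23.6, 30.7, 25.2 and 30.9 CPM with senexin B. The gap was small in each of these lines and did not reach the first decimal in line 4.

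Whether the inhibitor acted differently with and without CDK8 was tested as an interaction, in which a negative value means a lower response in Cdk8Δ/Δ than in Cdk8fl/fl. These fits did not have the line as a block, so the pairing of libraries within a line was not used. Of 71 members edgeR called 0 (0.0% of all 14164 genes), and 2 (2.82%) had an unadjusted p under 0.05 against 0.473% of all genes. DESeq2 called 0 (0.0%), and the same 2 had an unadjusted p under 0.05 there against 0.572%. They were Ndufc1 at -0.62 (SE 0.28, edgeR adjusted p = 0.9999) and Uqcrb at -0.86 (SE 0.38, edgeR adjusted p = 0.9999). The comparison shares its DMSO libraries with the genotype comparison in which the same 2 genes had the smallest p, so the results are not independent. Ndufc1 was at 33.4, 64.3, 43.0 and 48.1 CPM with senexin B in Cdk8fl/fl lines, lower than with DMSO only in line 1, and at 41.3, 45.0, 35.9 and 53.6 CPM in Cdk8Δ/Δ lines, lower in each. Uqcrb was at 11.9, 21.1, 33.1 and 16.8 CPM with senexin B in Cdk8fl/fl lines, lower only in line 1.

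Ndufc2, an accessory subunit of the complex I membrane arm at chr7:97400003-97407802, was the 1 member higher in every Cdk8fl/fl line and lower in every Cdk8Δ/Δ line (24 of 14164 genes, 0.169%). It was at 103, 172, 164 and 116 CPM with DMSO and 109, 212, 180 and 128 CPM with senexin B in Cdk8fl/fl lines, and at 141, 142, 144 and 149 against 124, 130, 122 and 136 CPM in Cdk8Δ/Δ lines. Its interaction was -0.35 (SE 0.28, unadjusted p = 0.238, edgeR adjusted p = 0.9999), and -0.33 (SE 0.13, unadjusted p = 0.0284, edgeR adjusted p = 0.991) with the block. The interaction median was -0.19 over 64 nuclear members, with 57 below 0 (50.3% of all genes), and -0.34 over 7 mitochondrial members, and without Cdk8fl/fl line 2 it was -0.04 and -0.07.

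The rest of the machinery was followed through lists of genes around the chain. Of complex V, the ATP synthase, 17 of 19 genes were tested, and the median log2 fold change was 0.11 for the genotype in DMSO, -0.20 for the genotype with senexin B, 0.19 for senexin B in Cdk8fl/fl and -0.11 in Cdk8Δ/Δ lines. Of 42 assembly factors of the chain 39 were tested, with medians of 0.04, -0.07, 0.26 and -0.01 in the same order. The 15 genes of mitochondrial DNA expression had medians of -0.02, 0.06, -0.02 and 0.09, the 15 genes of the tricarboxylic acid cycle -0.03, -0.04, -0.01 and -0.04, 8 nuclear regulators 0.08, 0.12, 0.12 and 0.12, and 4 genes of the mobile electron carriers 0.06, -0.13, 0.02 and -0.18. None of these genes had an adjusted p under 0.05 in edgeR in any of the 6 comparisons, with or without the block. The B-lymphoid markers had medians of 0.08, -0.25, 0.11 and -0.11 in that order. One of them, Cd79b, a signalling chain of the B-cell receptor, was lower with senexin B over all lines with the block (log2 fold change -0.38, SE 0.08, edgeR adjusted p = 0.0308), and its part in the values of the members was not tested. For the whole list the summed level was 5694 to 7546 CPM in Cdk8fl/fl DMSO, 6326 to 8635 in Cdk8fl/fl senexin B, 5913 to 7357 in Cdk8Δ/Δ DMSO and 5499 to 7093 in Cdk8Δ/Δ senexin B.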

How the data were processed

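The deposited files held raw counts per gene for 16 libraries. Per the file headers and the study's methods, the authors trimmed 50-base single-end SENSE mRNA-Seq reads, aligned them with STAR to GRCm38, and counted them with featureCounts 1.5.1 over exons by gene without strand, multi-mapping or overlap options. Of 50686 gene identifiers, 50376 matched a symbol.

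Genes were filtered with filterByExpr in each comparison, scaled by TMM and tested with edgeR 4.0.16 (robust quasi-likelihood, R 4.3.3). A call took a change over 2-fold and p under 0.05 after Benjamini-Hochberg adjustment, the limits in the study's methods for differential expression. The study's heatmap legend and pathway analysis give a looser adjusted limit. It reports more genes between the genotypes than were called here. DESeq2 1.42.0, a fit without filter, leaving out each library and a line block were alternatives. CPM are TMM-scaled. Shares are of total counts, and depth limits nuclear genes near 0 counts. No pair of the 120 library pairs was a copy (smallest chi-square per gene 13.8). Deviations of the DMSO and senexin B libraries with the same number correlated at 0.56 to 0.87 within a genotype, so numbers were read as lines. Members, lists and the rule for named genes were chosen with earlier results of these data known. Named with values were the mitochondrial, complex II, core and isoform genes, and members with an adjusted p under 0.05 or, failing that, at most 8 with the smallest unadjusted p under 0.05. Other members named were chosen after their values were seen. Some of the genes under these rules are not reported here. Differences within a line are of log2(CPM + 1). The fits were tested on simulated data.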

Additional observations from a re-analysis of the deposited data

Results flagged for a closer look

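In 6 of 60 groups of 4 libraries tested over 12 members named for their p, Cox6a2 and the shares of counts on mitochondrial and on nuclear members, 1 library stood far from the other 3, where chance marks about 1 in 20 groups. Cdk8Δ/Δ DMSO line 2 was high for Cox6b2 at 3.57 CPM. Cdk8Δ/Δ senexin B line 2 was high for the share of counts on the mitochondrial members at 7.35% and for Uqcrb at 19.7 CPM. Cdk8fl/fl DMSO line 1 was low for Ndufb7 at 81.0 CPM. Cdk8fl/fl senexin B line 1 was high for Cox6a2 at 222 CPM, and Cdk8fl/fl senexin B line 2 was high for Ndufb11 at 187 CPM.

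Ndufc2 was higher with senexin B in all 4 Cdk8fl/fl lines and lower in all 4 Cdk8Δ/Δ lines. The interaction was -0.35 on the log2 scale, and edgeR's test of that difference gave an unadjusted p of 0.238 and an adjusted p of 0.9999. With the line as a block it was -0.33, with an unadjusted p of 0.0284 and an edgeR adjusted p of 0.991. Without Cdk8fl/fl senexin B library 2 it was -0.17 in the fit without the block, and leaving out each library in turn gave -0.49 to -0.17.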

How the results depend on the processing

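The number of called members kept its value in 129 of 130 alternatives over the 6 comparisons. The exception was 1 member (Cox6a2) for senexin B in Cdk8fl/fl lines with the replicate block and both libraries of line 1 left out, a setting added after seeing the data. The value kept was 0 in each comparison. Without the block edgeR called 1 of 13174 genes between the genotypes in DMSO and 0 genes in every other comparison. Staying at 0 therefore says little, and the same holds for named members staying on their side of the threshold. The nuclear medians moved by less than 0.21, the SD between library medians, in 115 of 118 alternatives, and the mitochondrial medians by less than 0.33 in 116 of 118. These limits exceed several of the medians, so a change of sign could pass as unmoved. For senexin B the nuclear median ran from -0.06 to 0.24 in Cdk8fl/fl lines and the mitochondrial one from -0.07 to 0.22 in Cdk8Δ/Δ lines. All that moved beyond the limits were medians of the genotype comparison with senexin B. The nuclear one went from -0.22 to 0.0095 without Cdk8fl/fl senexin B library 2 or both libraries of that line, and to 0.033 with the replicate block as well, and the mitochondrial one from -0.18 to 0.18. Leaving out 1 library at a time gave -0.31 to 0.01 and -0.34 to 0.18. Of 408 alternatives for the named members, 407 kept direction and side of the threshold, and Cox6b2 for senexin B in Cdk8fl/fl lines reversed from 1.49 to -0.40 without library 2 of that group (range over single libraries left out -0.40 to 2.37). The cause was not tested. The mitochondrial share, 5.25% of all counts on average, was 86.6% when taken over the member counts alone.

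Between the genotypes, libraries of the same number correlated at -0.15 to 0.43, so they share only a number. With the number as a replicate block, 0 genes were called in DMSO in place of 1, and the median of the nuclear members was 0.03 in DMSO and -0.17 with senexin B. Depth limits the nuclear isoforms near 0 counts.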
